A study of Oryza sativa with 12 samples.

Results

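In leaf blades of rice (Oryza sativa), 147 loci whose description names a transposon protein were expressed in every library. They were chosen by that description and by an FPKM of at least 1 in all 12 libraries, and they came from 774 loci described as transposon proteins among 32846 loci in all. FPKM counts sequenced fragments relative to the length of a transcript and the size of a library. LOC_Os07g04930 was left out by the rule, and would have missed the level threshold in any case. The libraries formed 4 groups of 3: Oshmgb1 mutant plants at low phosphate (Pi), Oshmgb1 mutant plants at high Pi, wild-type (WT) plants at low Pi and WT plants at high Pi. Every seedling had 14 d at high Pi, followed by 7 d at either supply, and was 21 d old at harvest. The labels give neither the kind of lesion in the mutant nor the number of lines, and the design text gives 200 µM for both Pi conditions, which leaves the low-Pi concentration uncertain. The labels do not state whether replicates are separate plants, and the p-values therefore cover only the spread between these libraries, which may be technical.

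Transposable elements are DNA segments that can move or copy themselves within a genome. Retrotransposons, such as the Ty1-copia and Ty3-gypsy elements with long terminal repeats and the short interspersed elements (SINE), move through an RNA copy, whereas DNA transposons, such as the CACTA (En/Spm), Mutator, Mariner and Pong families, are moved as DNA by a transposase. Plants keep most elements silent through small RNAs, DNA methylation and chromatin marks. Some host genes descend from transposases: in Arabidopsis, FAR1 and FHY3, transcription factors of far-red light signalling, are related to Mutator-like transposases. Automatic annotation can also give a transposon name to an ordinary host gene that lies near or within an element. HMGB proteins, the family to which OsHMGB1 belongs, are common in chromatin, where they bend the DNA they bind.

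The FPKM of a library summed to at least 549457 and at most 583292, with 16093 to 16976 loci at 1 FPKM or more. The locus taken as OsHMGB1, LOC_Os06g51220 (described as HMG1/2), fell in the mutant libraries relative to WT at both Pi levels, with 516 to 726 FPKM in the 6 mutant libraries and 1177 to 2147 FPKM in the 6 WT libraries. Its log2 fold for mutant against WT was −1.48 at low Pi (adjusted p = 0.000266) and −1.19 at high Pi (adjusted p = 0.00257). Leaf markers were abundant: 4 loci of the rubisco small chain summed to between 6454 and 16950 FPKM, and 17 loci of chlorophyll a/b-binding proteins to between 23433 and 45038 FPKM. Of 16 loci of the seed storage proteins glutelin and prolamin, 11 were at 0 in all libraries, and the sum of the list lay between 2.07 and 4.82 FPKM. The rubisco sum averaged 8529 FPKM in mutant plants at low Pi, 13463 in mutant plants at high Pi, 11720 in WT at low Pi and 12364 in WT at high Pi. The 57 loci described with the word pollen, 17 of them at 0 in all libraries, summed on average to 111, 134, 109 and 140 FPKM in the same order. The part of either in the results below was not tested. In bulk tissue, fewer cells of a type and less RNA per cell cannot be told apart. The sources used here do not give how reads matching several loci were counted, so values of members with near-identical copies are uncertain.

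Most transposon-described loci were not expressed at this threshold. Of the 774, 585 never reached 1 FPKM in any library and 250 were at 0 in all 12. The 147 members made up 19.0% of the description class, whereas 44.7% of all loci (14672) met the same threshold. Ty3-gypsy had no member: of its 65 loci, 63 stayed below 1 FPKM in every library and 35 were at 0 throughout. LINE, the long interspersed elements, had 0 of 3 loci. Ty1-copia had 5 members of 14 loci and SINE 4 of 8. The unclassified retrotransposons were the largest class of loci and supplied 44 members of 310. Among DNA transposons, CACTA supplied 27 of 215, Pong 6 of 24, Mutator 3 of 7 and Mariner 1 of 1. Loci described as unclassified transposon supplied 57 of 127, the most of any class. Together, 53 of 400 loci named retrotransposon and 94 of 374 loci named transposon were members.

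**Figure D1:**
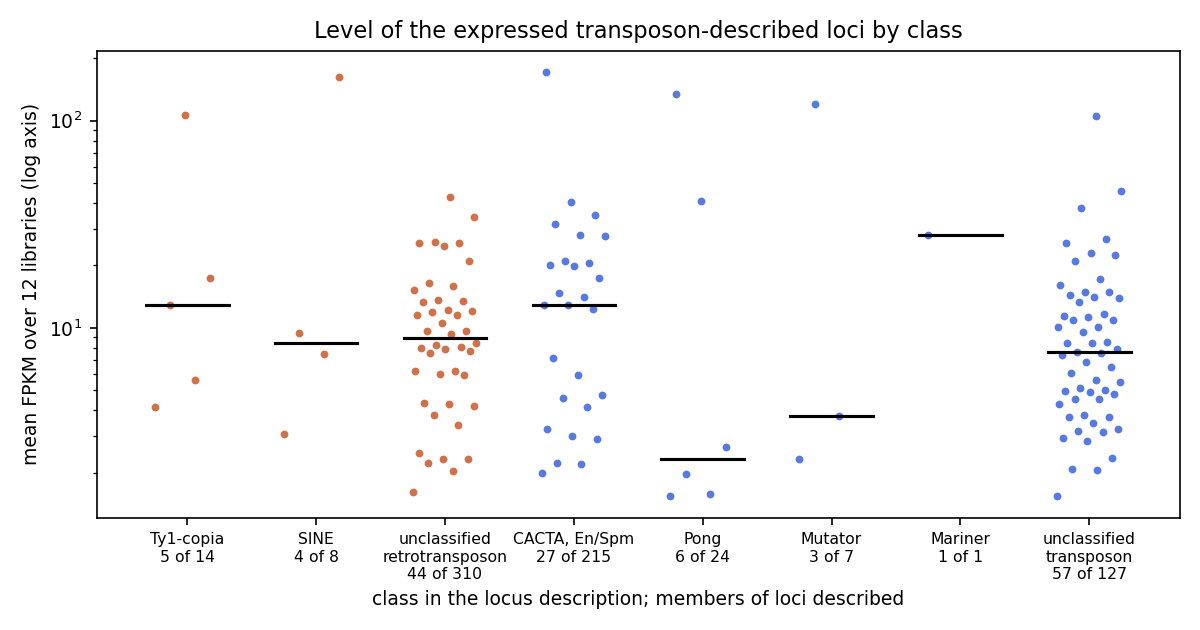
Each point is 1 member, placed by its mean FPKM over 12 libraries on a log axis, in the class its description names; the counts give members of loci described, and the black line is the class median. Retrotransposon classes are orange and DNA and unclassified transposon classes blue. In 6 of the 8 classes 1 locus stands above 100 FPKM, whereas the highest unclassified retrotransposon has 42.6 FPKM.

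Loci lay close to the threshold on either side. Just inside it, LOC_Os09g14960 (Pong) had a lowest value of 1.00 FPKM, LOC_Os11g47410 (unclassified retrotransposon) one of 1.01 and LOC_Os02g26740 (Pong) one of 1.06. Just outside it, LOC_Os01g34630 (Ty1-copia) had a lowest value of 0.91, LOC_Os04g23780 (unclassified retrotransposon) one of 0.87 and LOC_Os09g32930 (SINE) one of 0.85. A rule that asks for 1 FPKM in every library leaves out loci that are switched off in any group. LOC_Os07g04930, an unclassified retrotransposon locus, was such a case: it had 0, 0 and 0.04 FPKM in mutant plants at low Pi, 17.3, 19.2 and 71.1 FPKM in mutant plants at high Pi, 0, 0.04 and 0 FPKM in WT plants at low Pi and 65.2, 56.2 and 62.9 FPKM in WT at high Pi.

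The functional terms attached to transposon-described loci, members or not, named no mobile-element function. Gene Ontology (GO) terms were present for 128 of the 147, and 0 of them named transposition, reverse transcription or another function of a mobile element; 0 of the 627 loci that were not members and 8 of all loci carried such a term. Names such as PP2A regulator or kinase locus in the text below repeat an annotation, and the function was not tested. Several of the annotated roles fell within 1 class. All 26 members annotated with a response to red or far-red light were unclassified transposons, as were all 6 regulators of protein phosphatase 2A (PP2A), an enzyme that removes phosphate from other proteins, and all 5 oligopeptide transporters. All 6 Pong members were annotated as glutathione transferases, which conjugate glutathione to toxic compounds, and so were all 24 Pong loci at any level. A group of 7 members with DNA helicase and telomere terms were all unclassified retrotransposons; the Ty1-copia locus LOC_Os01g01312, whose terms include helicase activity and DNA repair, was counted among the other terms. Of 17 members of the spliceosome or mRNA processing, 11 were described as CACTA elements and 6 as unclassified retrotransposons. A further 6 members carried terms of chromatin or gene silencing, 7 of proteolysis and 5 of protein kinases, each group spread over more than 1 class, 42 had other terms and 20 had none that was informative. Each member was counted in 1 group only, the first it matched in a fixed order from the light term to protein kinases. A group may thus leave out members with its terms that an earlier group had taken.

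**Figure D2:**
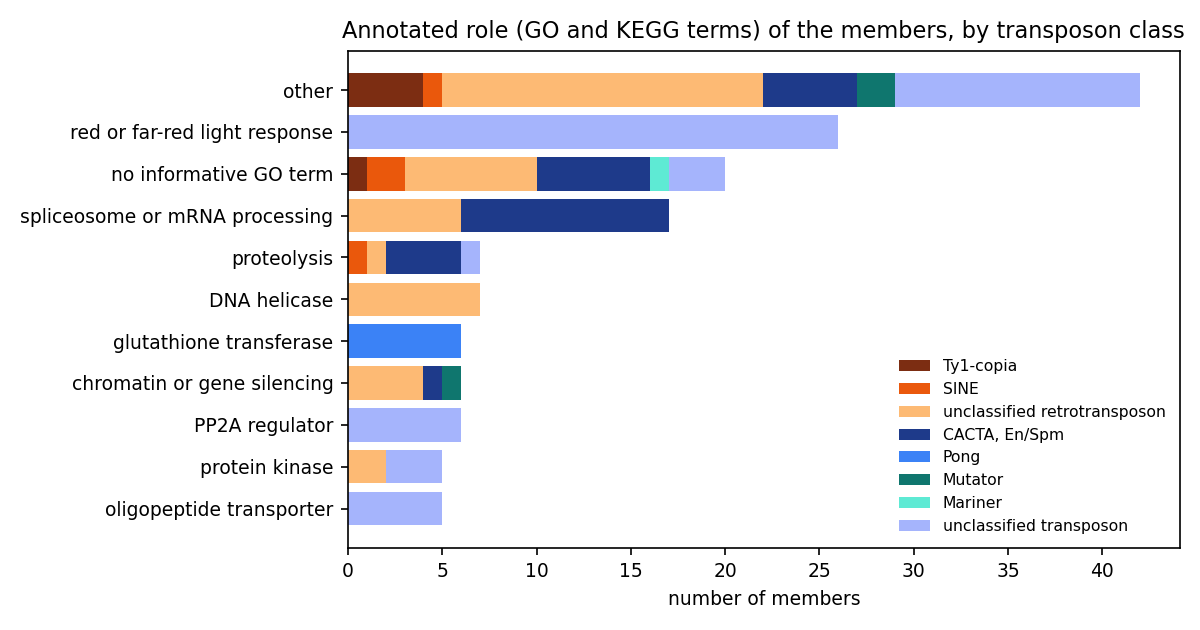
Bars count members by the role that their GO and KEGG terms give, coloured by the transposon class in the description. The red or far-red light, glutathione transferase, helicase, PP2A and transporter groups each fall within 1 class, whereas the spliceosome group holds 11 CACTA loci and 6 unclassified retrotransposon loci.

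Some members had neighbouring locus numbers. Among members, 8 pairs had locus numbers no more than 30 apart on the same chromosome, of which 6 shared the class. Of these, 5 also fell in the same role group. The SINE pair LOC_Os08g16810 and LOC_Os08g16830 is among the 5 only because neither locus had an informative term. The unclassified transposons and unclassified retrotransposons alone held 57 and 44 of the 147 members. How many pairs would share a class from class sizes alone was not computed. LOC_Os04g32050 and LOC_Os04g32060, both oligopeptide transporters, averaged 105 and 7.88 FPKM. LOC_Os02g39520 and LOC_Os02g39540, both with the far-red light term, averaged 10.9 and 7.68 FPKM. Another pair of oligopeptide transporters, LOC_Os04g44300 and LOC_Os04g44320, averaged 4.89 and 3.73 FPKM. Levels thus lay far apart within the first transporter pair and closer within the far-red light pair and the other transporter pair.

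A group of 6 loci carried a large share of the signal. LOC_Os10g02630 (CACTA), annotated as a component of the U1 snRNP, which recognises the start of introns, was the highest, with 185.9, 201.0 and 186.6 FPKM in mutant plants at low Pi, 147.7, 153.6 and 141.4 FPKM in mutant plants at high Pi, 199.9, 174.5 and 179.4 FPKM in WT plants at low Pi, and 158.9, 172.5 and 160.7 FPKM in WT at high Pi. Within each genotype, every library at low Pi lay above every library at high Pi. LOC_Os05g04630 (SINE), annotated as an aspartic endopeptidase that cuts proteins, averaged 187 ± 14.1 FPKM in mutant plants at low Pi, 144 ± 12.6 in mutant plants at high Pi, 182 ± 19.1 in WT at low Pi and 138 ± 16.3 in WT at high Pi (SD, n = 3 each). Its groups did not overlap between low and high Pi in either genotype, but its log2 fold missed the call in both, at 0.37 in the mutant (adjusted p = 0.0528) and 0.40 in WT (adjusted p = 0.0504).

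The glutathione transferase LOC_Os12g36400 (Pong) averaged 135 FPKM over 12 libraries and was not called in any comparison. It ranged between 85.9 and 138.1 FPKM in the mutant libraries, against 135.2 and 177.1 FPKM in the WT libraries, and the genotypes overlapped. LOC_Os12g12360 (Mutator), annotated as an RNA-binding protein of a ribonucleoprotein complex, averaged 120 FPKM, LOC_Os08g03520 (Ty1-copia) 107 FPKM and LOC_Os04g32050 (unclassified transposon) 105 FPKM. The 6 loci held 29.3 to 36.8% of the FPKM of all members. Below them, LOC_Os02g42220 (an oligopeptide transporter) averaged 45.6 FPKM, LOC_Os03g31026 (a helicase) 42.6, LOC_Os12g12690 (a glutathione transferase) 40.8 and LOC_Os08g32100 (CACTA, mRNA processing) 40.4. Next after the helicase among unclassified retrotransposons was LOC_Os06g43190 (calcium-dependent phospholipid binding) with 34.4 FPKM. The second Ty1-copia locus, LOC_Os01g60309, averaged 17.4 FPKM, the second SINE locus, LOC_Os08g16830, 9.43 FPKM and the only Mariner member, LOC_Os02g34730, 28.2 FPKM. The median member averaged 8.45 FPKM, against 11.4 FPKM for all loci that met the same threshold.

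As a whole, the members took up 0.397 to 0.472% of the FPKM of a library. Their sum was 2409 ± 75.3 FPKM in mutant plants at low Pi, 2293 ± 61.8 in mutant plants at high Pi, 2550 ± 107 in WT at low Pi and 2290 ± 71.6 in WT at high Pi (SD, n = 3 each). Without the 6 highest loci the sums were 1549 ± 51.4, 1608 ± 32.4, 1630 ± 90.3 and 1550 ± 51.7 FPKM in the same groups. The difference in mean between low and high Pi in the mutant thus ran the other way once those 6 were set aside. The mutant libraries at low and high Pi overlapped in both sums. Ty1-copia summed to 137 ± 8.46 FPKM in mutant plants at low Pi, 119 ± 7.57 in mutant plants at high Pi, 207 ± 39.2 in WT at low Pi and 124 ± 5.72 in WT at high Pi, most of it from LOC_Os08g03520. The 44 unclassified retrotransposons summed to 477 ± 11.8 FPKM in mutant plants at low Pi and 539 ± 8.07 in mutant plants at high Pi, without overlap, and to 484 ± 35.8 in WT at low Pi and 502 ± 18.0 in WT at high Pi, with overlap.

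Levels of most members varied little. The ratio of the highest to the lowest of the 12 libraries had a median of 1.59 among members and of 1.80 among all loci at 1 FPKM in 12 libraries, and it stayed below 2-fold in 105 members (71.4%), against 61.1% of those loci. Among the 26 members with the far-red light term, 24 stayed below 2-fold, and 15 of the 17 spliceosome members did. The widest range, 10.9-fold, was that of LOC_Os01g12810, and 7 members exceeded 4-fold. Differences between groups were tested with limma over all 17630 loci that reached 1 FPKM in at least 3 libraries, on log2(FPKM + 1), and calls were made below 0.05 after Benjamini-Hochberg adjustment. On that scale the change of a weakly expressed locus is understated. In at least 1 of 5 comparisons, 36 members (24.5%) were called, against 33.9% of all loci tested.

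**Figure D3:**
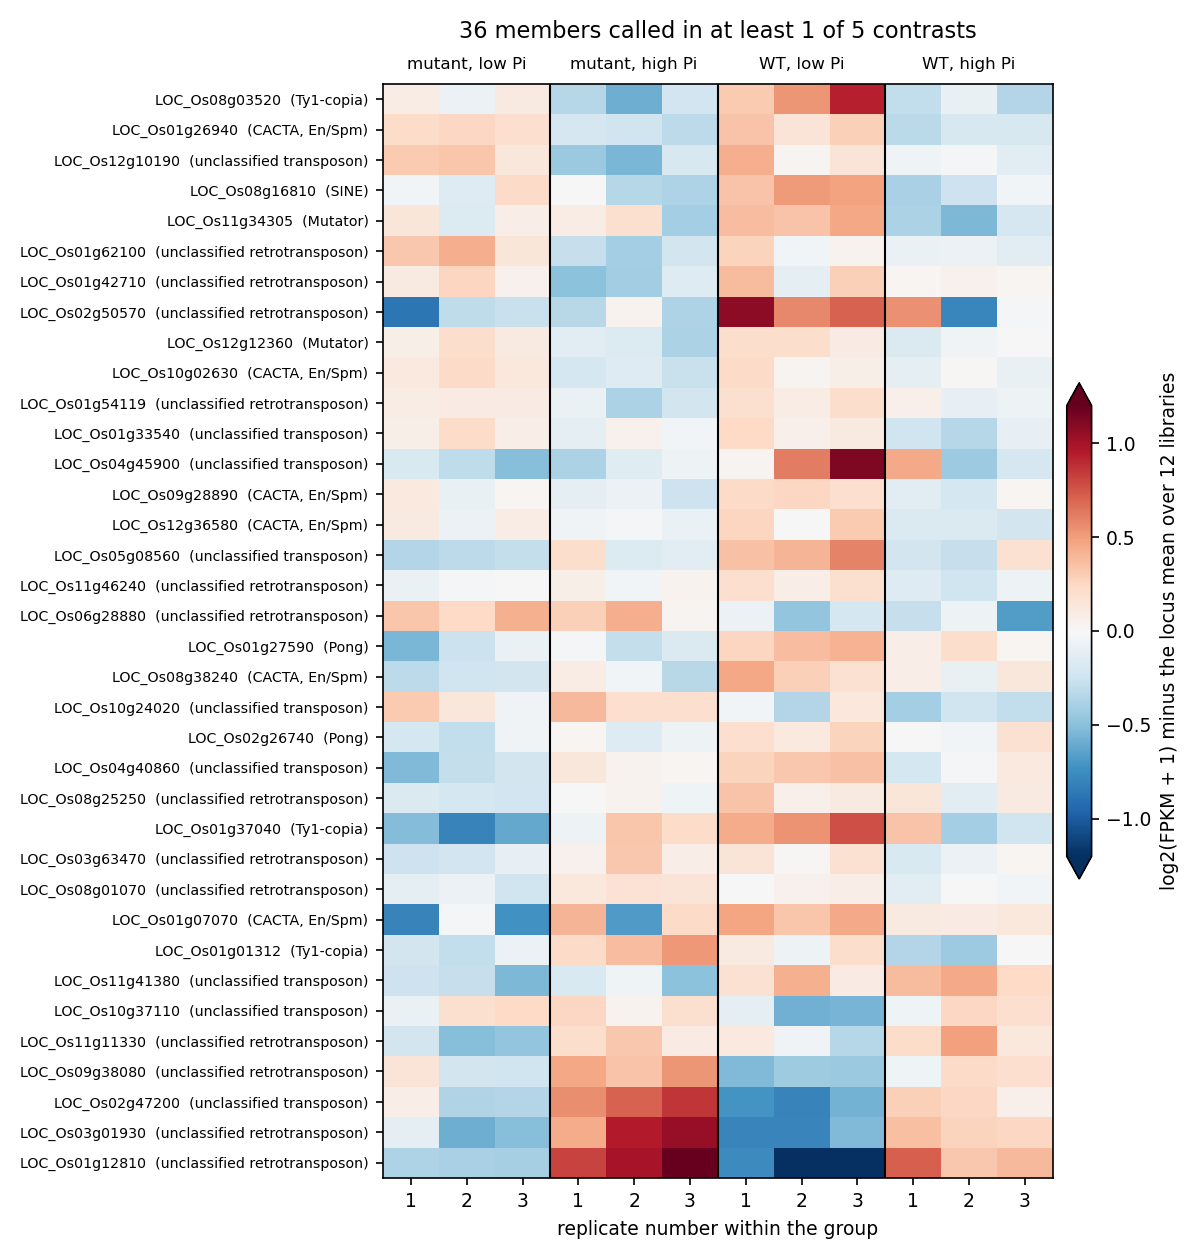
Rows are the 36 members called in at least 1 comparison with their class, columns the 12 libraries, and colour is log2(FPKM + 1) minus the mean of the locus over the libraries, with colours saturated beyond the ends of the scale. LOC_Os01g12810, LOC_Os03g01930 and LOC_Os02g47200 at the bottom are blue at low Pi and red at high Pi in both genotypes (LOC_Os02g47200 is near its mean in mutant replicate 1 at low Pi), and LOC_Os01g37040 is blue in the mutant at low Pi and red in WT at low Pi.

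Low Pi in WT leaves was accompanied by a fall of a protein kinase locus and a chloroplast movement locus and by a rise of a cold-acclimation locus. Against high Pi, 11 members rose and 5 fell, 16 in all (10.9% of the members), where 13.3% of all loci tested were called (8.43% higher and 4.87% lower). The kinase locus LOC_Os01g12810 (unclassified retrotransposon), annotated to the mitochondrion, had 5.48, 2.67 and 3.81 FPKM in WT at low Pi, against 17.1, 12.8 and 13.4 FPKM in WT at high Pi. All 3 libraries at low Pi lay far below all 3 at high Pi, and its log2 fold was −1.66 ± 0.21 (SE; adjusted p = 0.000526). LOC_Os03g01930 (unclassified retrotransposon), annotated to the movement by which chloroplasts avoid strong light and gather in weak light, had 10.6, 10.6 and 12.9 FPKM in WT at low Pi, against 24.8, 23.2 and 22.8 FPKM in WT at high Pi. The groups did not overlap, and the log2 fold was −1.0 ± 0.17 (adjusted p = 0.00284).

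Smaller decreases in WT were those of LOC_Os02g47200, an unclassified transposon locus annotated to the mitochondrion, with 6.21, 5.79 and 6.97 FPKM at low Pi, against 13.4, 13.1 and 11.3 FPKM at high Pi, a log2 fold of −0.89 (adjusted p = 0.00151), and of LOC_Os09g38080, without an informative term, at −0.60 (adjusted p = 0.00796). LOC_Os08g03520 (Ty1-copia), annotated with nucleic acid unwinding and cold acclimation, had 126.9, 147.8 and 195.8 FPKM in WT at low Pi, against 82.8, 96.1 and 79.6 FPKM in WT at high Pi. The libraries at low Pi were all higher, though spread widely, and the log2 fold was 0.84 ± 0.15 (adjusted p = 0.00505). LOC_Os11g34305 (Mutator), annotated to a histone acetyltransferase complex, which loosens chromatin, averaged 5.11 ± 0.26 FPKM in WT at low Pi, against 2.60 ± 0.42 FPKM in WT at high Pi (SD, n = 3 each), a log2 fold of 0.77 (adjusted p = 0.0097). LOC_Os08g16810 (SINE), without a term, averaged 4.43 ± 0.35 FPKM at low Pi, against 2.43 ± 0.42 FPKM at high Pi, a log2 fold of 0.67 (adjusted p = 0.0117). LOC_Os01g26940 (CACTA), assigned to the spliceosome by KEGG, rose by a log2 fold of 0.50 (adjusted p = 0.00223). These 8 calls, LOC_Os01g26940 included, held under every alternative run.

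The other calls named in WT were less firm. LOC_Os01g37040 (Ty1-copia, log2 fold 0.69, adjusted p = 0.0307) lost its call without WT replicate 2 or 3 at low Pi (adjusted p = 0.0614 and 0.121) or without WT replicate 2 or 3 at high Pi (adjusted p = 0.109 and 0.0956). The PP2A regulator LOC_Os05g08560 (0.56, adjusted p = 0.0251) lost it without WT replicate 2 or 3 at low Pi (adjusted p = 0.0506 and 0.104) or WT replicate 1 or 2 at high Pi (0.0802 and 0.091). LOC_Os10g37110, annotated as an oxidoreductase of secondary metabolism (−0.55, adjusted p = 0.028), lost it without WT replicate 2 or 3 of either Pi level (adjusted p = 0.0811 to 0.112). LOC_Os12g36580 (CACTA, 0.38) and LOC_Os01g33540 (unclassified transposon, 0.36) lost it without 10 and 4 of the libraries in turn (adjusted p up to 0.159 and 0.105). The number of members called was 8 without WT replicate 3 at low Pi and 9 without WT replicate 2 at high Pi. Under median-of-ratios scaling, the split of 11 higher and 5 lower became 6 and 5.

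In mutant leaves, low Pi came with a fall of the same kinase and chloroplast movement loci and with a rise of a kinase and a helicase locus. Against high Pi, 7 members rose and 10 fell, 17 in all (11.6%), where 18.8% of all loci tested were called (10.5% higher and 8.28% lower). LOC_Os01g12810 had 7.49, 7.42 and 7.36 FPKM in mutant plants at low Pi, against 18.4, 20.9 and 29.2 FPKM in mutant plants at high Pi. The libraries at low Pi agreed closely and lay far below those at high Pi, with a log2 fold of −1.47 ± 0.21 (adjusted p = 0.000886). LOC_Os03g01930 had 17.6, 12.4 and 13.1 FPKM in mutant plants at low Pi, against 26.4, 37.8 and 40.5 FPKM in mutant plants at high Pi, again without overlap, and its log2 fold was −1.22 ± 0.17 (adjusted p = 0.000736). LOC_Os02g47200 fell by 0.92 (adjusted p = 0.00112) and LOC_Os09g38080 by 0.55 (adjusted p = 0.00911) on the log2 scale.

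LOC_Os11g11330 (unclassified retrotransposon), annotated as a malate transporter of the vacuolar membrane, averaged 8.32 ± 1.04 FPKM in mutant plants at low Pi, against 13.2 ± 1.12 FPKM in mutant plants at high Pi (SD, n = 3 each), a log2 fold of −0.61 (adjusted p = 0.0115). LOC_Os12g10190 (unclassified transposon), annotated as a serine/threonine kinase, had 12.6, 12.8 and 11.0 FPKM in mutant plants at low Pi, against 7.00, 6.45 and 8.53 FPKM in mutant plants at high Pi. The groups were well apart, and its log2 fold was 0.66 ± 0.12 (adjusted p = 0.00435). LOC_Os01g62100 (unclassified retrotransposon), one of the 7 in the helicase group, averaged 7.54 ± 0.86 FPKM in mutant plants at low Pi, against 4.62 ± 0.36 FPKM in mutant plants at high Pi, a log2 fold of 0.60 (adjusted p = 0.00351). The spliceosome locus LOC_Os01g26940 rose by a log2 fold of 0.48 (adjusted p = 0.0022), close to its rise in WT. These calls held under every alternative run, as did the fall of LOC_Os01g37040 described with the interaction.

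The highest member, LOC_Os10g02630, rose in the mutant by 0.37 (adjusted p = 0.0141), a call lost without mutant replicate 2 at low Pi (adjusted p = 0.0609). The RNA-binding locus LOC_Os12g12360 rose by 0.36 (adjusted p = 0.0238), a call lost without mutant replicate 2 or 3 at low Pi (adjusted p = 0.0911 and 0.0582) or mutant replicate 3 at high Pi (adjusted p = 0.0677). LOC_Os01g01312 (−0.57, adjusted p = 0.0147) was lost without mutant replicate 2 at low Pi (adjusted p = 0.0592). LOC_Os04g40860 (−0.41, adjusted p = 0.0202) was lost without mutant replicate 1 at low Pi (adjusted p = 0.0753) or mutant replicate 1 or 2 at high Pi (adjusted p = 0.0556 and 0.052). LOC_Os01g42710 (0.49) and LOC_Os01g54119 (0.32), both unclassified retrotransposons, each lost their call without 5 of the libraries in turn (adjusted p up to 0.119 and 0.135). The count was 11 without mutant replicate 2 at low Pi.

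The low-Pi folds of the genotypes rest on separate libraries and were set side by side. Their calls also use an estimate of the spread shared by all 12 libraries, so they are not independent tests. Among all loci tested, 1278 were called in both genotypes, 54.5% of the WT calls and 38.6% of the mutant calls. Of the 16 members called in WT and the 17 called in the mutant, 7 were called in both (43.8% and 41.2% of the lists). Of these, 5 moved the same way: LOC_Os01g12810, LOC_Os03g01930, LOC_Os02g47200 and LOC_Os09g38080 fell in both and LOC_Os01g26940 rose in both. LOC_Os01g37040 and LOC_Os04g40860 moved in opposite directions. Over all members, 77 of 147 (52.4%) had the same sign in both genotypes, where 60.0% of all loci at 1 FPKM in 12 libraries did. The median log2 fold of the members was 0.11 in WT and 0.01 in the mutant, beside 0.07 and 0.00 over all loci tested.

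**Figure D4:**
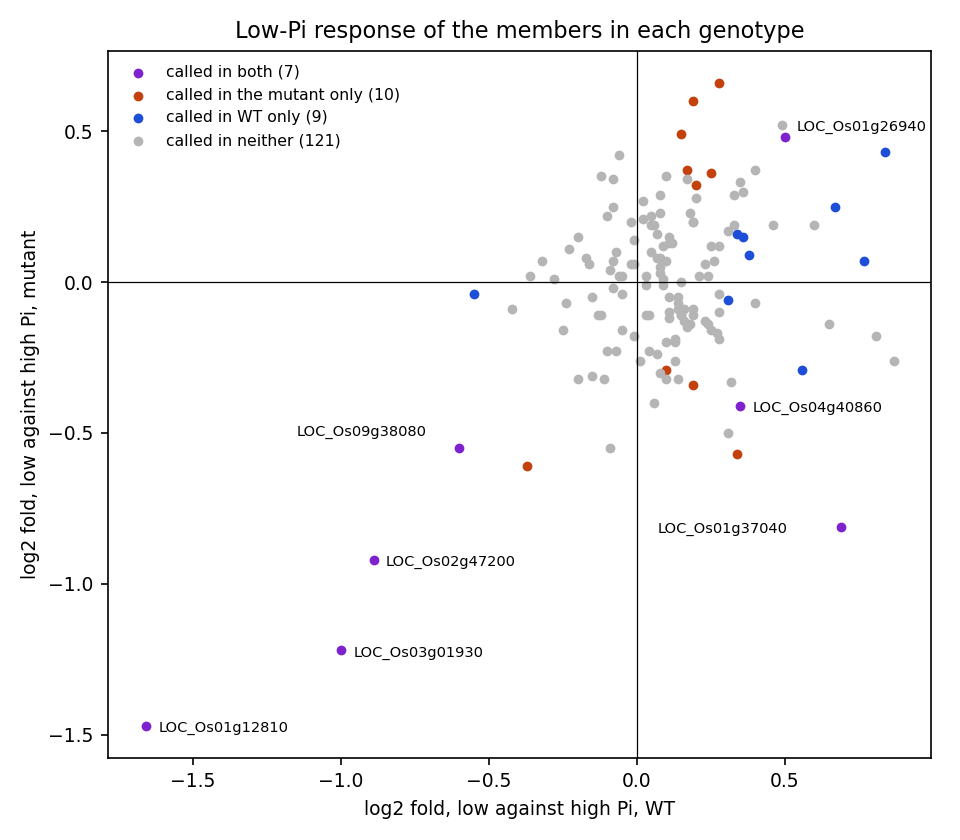
Each point is 1 of the 147 members, placed by its log2 fold at low against high Pi in WT (x axis) and in the mutant (y axis); colours mark where it was called and the 7 loci called in both are named. Most members lie close to 0, 4 named loci lie in the lower left, 1 in the upper right, and LOC_Os01g37040 and LOC_Os04g40860 lie in the lower right.

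At high Pi, few members differed between the genotypes. Mutant against WT, 2 rose and 1 fell, 3 in all (2.04%), where 3.58% of all loci tested were called (1.3% higher and 2.27% lower). The repair helicase locus LOC_Os01g01312 (Ty1-copia) had 4.94, 5.56 and 6.25 FPKM in mutant plants and 2.98, 2.75 and 4.10 FPKM in WT, without overlap, a log2 fold of 0.63 (adjusted p = 0.0327). The other called loci both carried the far-red light term: LOC_Os10g24020 had 3.95, 3.35 and 3.36 FPKM in mutant plants and 1.86, 2.21 and 2.08 FPKM in WT (log2 fold 0.58, adjusted p = 0.0486), and LOC_Os11g41380 had 3.11, 3.48 and 2.31 FPKM in mutant plants and 5.07, 5.40 and 4.51 FPKM in WT (−0.60, adjusted p = 0.0431). The genotypes did not overlap at either locus, the first being higher and the other lower in the mutant. LOC_Os01g01312 lost its call without mutant replicate 1 at low Pi, mutant replicate 2 or 3 at high Pi or WT replicate 1 or 2 at high Pi (adjusted p = 0.0508 to 0.103), LOC_Os10g24020 without 10 and LOC_Os11g41380 without 9 of the libraries in turn (adjusted p up to 0.114 and 0.123). No member was called without mutant replicate 2 or 3 or WT replicate 1 or 2 at high Pi, 1 was called without mutant replicate 1 or 2 at low Pi, WT replicate 1 at low Pi or WT replicate 3 at high Pi, and both scaling alternatives gave 3 higher and 0 lower.

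At low Pi, the mutant had less RNA from a Ty1-copia locus and from loci annotated to actin nucleation, PP2A regulation or glutathione transferase activity. Mutant against WT, 4 members rose and 12 fell, 16 in all (10.9%), where 15.9% of all loci tested were called (4.72% higher and 11.1% lower). LOC_Os02g50570 (unclassified retrotransposon), annotated to actin nucleation and cell tip growth, had 2.62, 4.36 and 4.47 FPKM in mutant plants and 12.9, 8.84 and 9.76 FPKM in WT. The genotypes did not overlap, and the log2 fold was −1.26 ± 0.29 (adjusted p = 0.0153), lost without mutant replicate 1 at low Pi (adjusted p = 0.0656). LOC_Os01g37040 (Ty1-copia) had 8.17, 6.55 and 7.61 FPKM in mutant plants and 16.9, 18.1 and 21.5 FPKM in WT. Every mutant library lay below every WT library by a wide gap, with a log2 fold of −1.23 ± 0.18 (adjusted p = 0.00271).

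The PP2A regulators LOC_Os05g08560 and LOC_Os04g40860 (both unclassified transposons) were lower in the mutant at low Pi. LOC_Os05g08560 had 4.03, 4.16 and 4.29 FPKM in mutant plants and 7.21, 7.56 and 8.71 FPKM in WT, a log2 fold of −0.77 ± 0.14 (adjusted p = 0.00643). LOC_Os04g40860 had 9.28, 11.2 and 11.7 FPKM in mutant plants and 16.8, 17.6 and 17.9 FPKM in WT, a log2 fold of −0.66 ± 0.11 (adjusted p = 0.0037). At both loci the libraries of the genotypes were clearly apart. The glutathione transferase LOC_Os01g27590 (Pong) averaged 1.96 ± 0.48 FPKM in mutant plants and 3.59 ± 0.26 FPKM in WT (SD, n = 3 each), a log2 fold of −0.65 (adjusted p = 0.00949). The calls of LOC_Os01g37040, LOC_Os05g08560, LOC_Os04g40860 and LOC_Os01g27590 held under every alternative run.

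LOC_Os11g41380, with the far-red light term, was lower in the mutant here as at high Pi (−0.59, adjusted p = 0.0176), a call lost without mutant replicate 3 or WT replicate 2 at low Pi (adjusted p = 0.0573 and 0.0631). LOC_Os08g03520, the Ty1-copia locus that rose in WT at low Pi, had 108.7, 97.0 and 110.0 FPKM in mutant plants and 126.9, 147.8 and 195.8 FPKM in WT. The genotypes did not overlap, but the call (−0.55, adjusted p = 0.0332) was lost under median-of-ratios scaling (adjusted p = 0.0709), upper-quartile scaling (0.0555) and without any of the 3 mutant libraries or WT replicate 2 or 3 at low Pi (0.0586 to 0.118). The spliceosome locus LOC_Os01g07070 (CACTA) had 6.62, 12.1 and 6.99 FPKM in mutant plants and 17.4, 15.7 and 17.2 FPKM in WT (−0.93, adjusted p = 0.0326), and LOC_Os04g45900 (unclassified transposon), of the plasma membrane, had 12.2, 11.2 and 9.53 FPKM in mutant plants and 14.3, 21.9 and 31.5 FPKM in WT (−0.92, adjusted p = 0.0376). Mutant replicate 2 stood nearer to WT at LOC_Os01g07070, and WT replicate 1 nearer to the mutant at LOC_Os04g45900. The calls of these loci were lost without 5 and 7 of the libraries in turn (adjusted p up to 0.122 and 0.14).

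The 4 members that were higher in the mutant at low Pi included the kinase locus. LOC_Os01g12810 had 7.49, 7.42 and 7.36 FPKM in mutant plants and 5.48, 2.67 and 3.81 FPKM in WT, a log2 fold of 0.80 ± 0.21 (adjusted p = 0.0248), without overlap. LOC_Os06g28880 (unclassified retrotransposon), annotated to DNA and chromatin binding, had 16.6, 15.5 and 17.8 FPKM in mutant plants and 12.4, 9.06 and 11.1 FPKM in WT, again without overlap, a log2 fold of 0.58 (adjusted p = 0.0337). The oxidoreductase LOC_Os10g37110 rose by 0.53 (adjusted p = 0.0277) and LOC_Os02g47200 by 0.49 (adjusted p = 0.0308) on the log2 scale. Each of these 4 calls was lost without 4 or 5 of the libraries in turn, all of the low-Pi groups (adjusted p up to 0.0822, 0.113, 0.107 and 0.11). At high Pi, LOC_Os06g28880 had a log2 fold of 0.59 for mutant against WT (adjusted p = 0.071). The number of members called was 7, 9 and 9 without mutant replicate 1, 2 and 3 at low Pi, and 6 and 7 without WT replicate 2 and 3 at low Pi. Median-of-ratios scaling turned 4 higher and 12 lower into 12 higher and 8 lower, and upper-quartile scaling into 9 and 8, so the excess of lower calls did not hold under other scaling.

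The low-Pi response differed between the genotypes at 4 members. The difference, mutant response minus WT response, was negative at all 4 (2.72% of the members, where 3.64% of all loci tested were called, 1.49% higher and 2.14% lower). The largest was that of LOC_Os01g37040, a Ty1-copia locus without a functional term. It had 8.17, 6.55 and 7.61 FPKM in mutant plants at low Pi, 11.6, 15.5 and 14.3 FPKM in mutant plants at high Pi, 16.9, 18.1 and 21.5 FPKM in WT plants at low Pi and 15.7, 8.95 and 10.1 FPKM in WT at high Pi. The libraries at low Pi were thus all below those at high Pi in the mutant and all above them in WT. Its log2 fold at low against high Pi was −0.81 ± 0.18 in the mutant (adjusted p = 0.011) and 0.69 ± 0.18 in WT (adjusted p = 0.0307), a difference of −1.49 ± 0.26 (adjusted p = 0.0116). The difference held under every alternative run, with adjusted p between 0.00295 and 0.0365, whereas the WT response alone was lost without the 4 libraries named above, without the filter (adjusted p = 0.0521), under median-of-ratios scaling (0.0637) and in the fit to the 6 WT libraries (0.0766), among other alternatives.

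The other members with a differing response were the PP2A regulators and the repair helicase. LOC_Os04g40860 fell at low Pi in the mutant (−0.41) and was higher in WT (0.35, adjusted p = 0.0494, a call lost under 17 of 20 alternatives), a difference of −0.76 ± 0.15 (adjusted p = 0.02). This difference lost its call without WT replicate 3 at low Pi (adjusted p = 0.0573) or WT replicate 2 at high Pi (adjusted p = 0.0528). LOC_Os05g08560 had a log2 fold of −0.29 in the mutant (adjusted p = 0.179) and 0.56 in WT, a difference of −0.85 ± 0.20 (adjusted p = 0.0424), lost without 10 of the 12 libraries in turn (adjusted p up to 0.115). LOC_Os01g01312 had 3.35, 3.12 and 3.82 FPKM in mutant plants at low Pi, 4.94, 5.56 and 6.25 FPKM in mutant plants at high Pi, 4.48, 3.85 and 4.86 FPKM in WT plants at low Pi and 2.98, 2.75 and 4.10 FPKM in WT at high Pi. Low-Pi libraries were the lower ones in the mutant, and in WT they were mostly the higher ones with some overlap, a difference of −0.91 ± 0.19 (adjusted p = 0.0276), lost without 6 of the libraries in turn (adjusted p up to 0.0786). The count was 2 without mutant replicate 1 or 2 at low Pi or mutant replicate 2 at high Pi, and 1 without WT replicate 3 at low Pi or WT replicate 2 at high Pi.

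**Figure D5:**
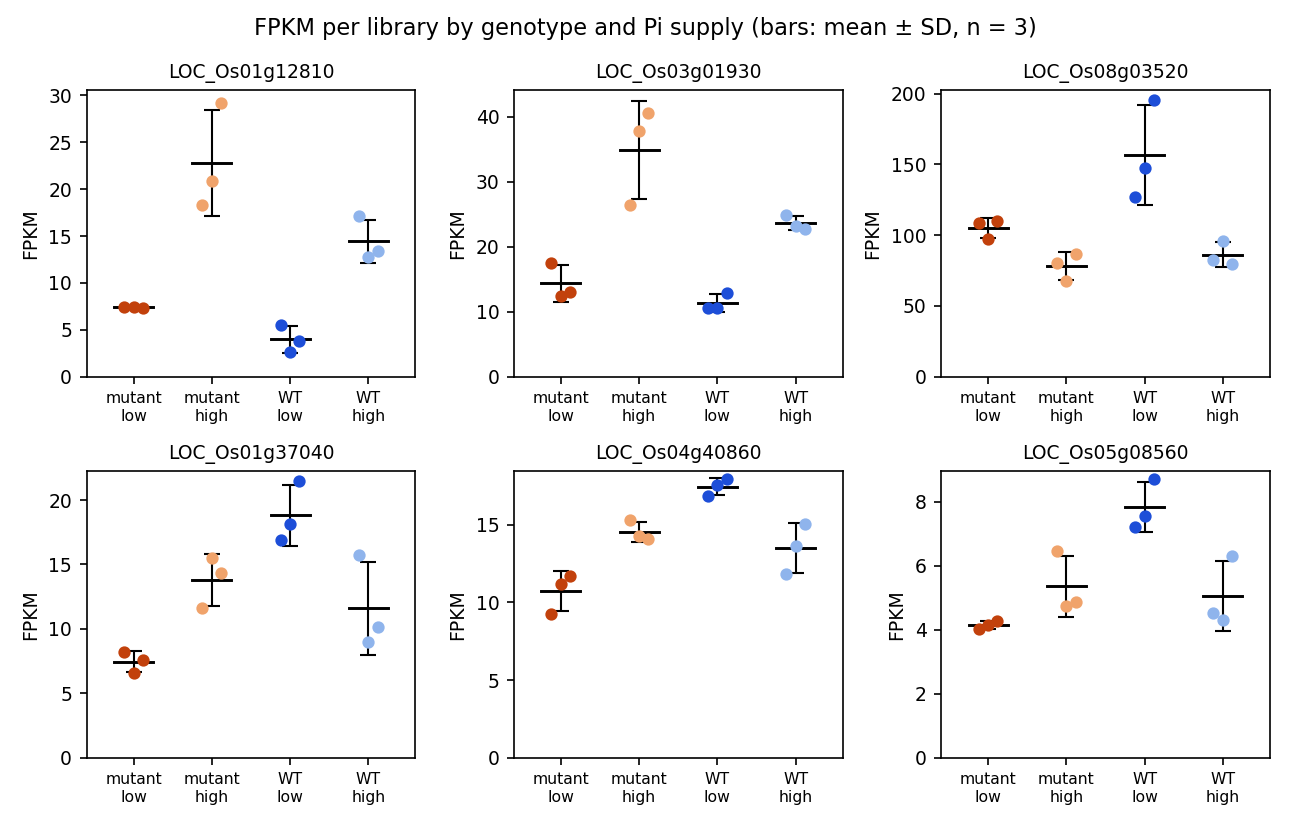
Points are single libraries, and black lines with bars show the mean ± SD (n = 3) in FPKM, by genotype and Pi supply. LOC_Os01g12810 and LOC_Os03g01930 are lower at low Pi in both genotypes, LOC_Os08g03520 is highest in WT at low Pi, and LOC_Os01g37040, LOC_Os04g40860 and LOC_Os05g08560 have their lowest mean in the mutant at low Pi and their highest in WT at low Pi.

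By class, the members were described by their counts and median folds. Over all 17630 loci tested, 10803 had a positive fold at low Pi in WT, 8847 at low Pi in the mutant and 7003 for mutant against WT at low Pi, with medians of 0.07, 0.00 and −0.07, so signs were unevenly split among loci in general. Of these loci, 13.3% were called for Pi in WT, 18.8% for Pi in the mutant and 15.9% for genotype at low Pi. All 5 Ty1-copia members had a positive log2 fold at low Pi in WT (median 0.34, 2 called) and 2 of 5 did in the mutant (median −0.15, 2 called lower). All 5 were lower in the mutant than in WT at low Pi by sign (median −0.55, 2 called), also under both scaling alternatives, where 1 was called. The 6 Pong members all had a positive fold at low Pi in WT, with a median of 0.21 and 0 called, and at low Pi all 6 were lower in the mutant by sign (median −0.28, 2 called), with 1 turning positive under median-of-ratios scaling. The second of these calls was LOC_Os02g26740, near the threshold (−0.38, adjusted p = 0.0465), and it was lost under 16 of 19 alternatives. The 27 CACTA members gave 3 calls for Pi in WT (11.1%) and 2 in mutant plants (7.41%), all higher at low Pi. Their median for mutant against WT at low Pi was −0.04, and it was positive under both other scalings. The 44 unclassified retrotransposons gave 1 higher and 3 lower calls at low Pi in WT (9.09%), 3 higher and 6 lower in the mutant (20.5%). Their medians were 0.06 in WT, −0.03 under median-of-ratios scaling, and 0.00 in the mutant. The only Mariner member was not called, and the class with the Ty3-gypsy name had no member to compare.

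By role, calls were set beside the shares of all loci tested. These shares were 13.3% for Pi in WT, 18.8% for Pi in the mutant and 3.64% for the interaction. For genotype, they were 3.58% at high Pi and 15.9% at low Pi. Of the 6 PP2A regulators, 4 had a positive low-Pi fold in WT and 1 in the mutant. The median difference in response was −0.54, beside −0.05 over all loci tested, and 2 were called, of which LOC_Os05g08560 rested on most of the libraries as given above. Under both other scalings the number of positive folds was the same. The 26 far-red light members gave 0 calls for Pi in either genotype (1 lower in the mutant under either other scaling; folds between −0.40 and 0.29), 2 for genotype at high Pi and 1 at low Pi. The 7 loci of the helicase group, which leaves out LOC_Os01g01312, gave 1 call in all, LOC_Os01g62100, and the 5 oligopeptide transporters gave 0. For mutant against WT at low Pi, median-of-ratios scaling gave 2 higher calls in the helicase group and 1 among the transporters, and upper-quartile scaling 0 and 1. The 17 spliceosome members gave 2 higher calls at low Pi in WT (11.8%), and 2 higher and 1 lower in mutant plants (17.6%). Both lay near the shares of all loci. Of the 6 members with chromatin or gene silencing terms, LOC_Os11g34305 and LOC_Os06g28880 were called, each in 1 comparison. Members of a role may share sequence and are not replicates of each other.

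Loci of protein families that include transposon silencing factors in plants were looked at beside the members. The list held 80 loci described as Argonaute, PAZ or piwi, Dicer, RNA-dependent RNA polymerase, DNA methyltransferase, SNF2, SET, YDG/SRA or jmjC proteins, of which 56 were tested. At low against high Pi, 3 rose and 1 fell in the mutant (7.14% called, against 18.8% of all loci tested), and 3 rose in WT (5.36%, against 13.3%). The list's median log2 fold was 0.06 in the mutant and 0.09 in WT, beside 0.00 and 0.07 over all loci tested. LOC_Os05g18850, described as a Dicer endoribonuclease, which cuts double-stranded RNA into small RNAs, rose by log2 0.59 in the mutant (adjusted p = 0.00427) and by 0.60 in WT (adjusted p = 0.0051). It had 3.72, 4.49 and 4.07 FPKM in mutant plants at low Pi, 2.44, 2.37 and 2.33 FPKM in mutant plants at high Pi, 4.22, 4.21 and 5.03 FPKM in WT plants at low Pi and 2.91, 2.74 and 2.20 FPKM in WT at high Pi, so that low Pi stood above high Pi in each genotype. LOC_Os03g51230, an SNF2 locus, rose in both (0.89 in the mutant, adjusted p = 0.00254; 0.63 in WT, adjusted p = 0.0195), and the WT call was lost without WT replicate 3 at low Pi (adjusted p = 0.0791) or WT replicate 2 or 3 at high Pi (adjusted p = 0.0574 and 0.0591). With a pseudocount of 0.1 its folds were 1.34 in the mutant and 1.01 in WT.

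Of the rest of that list, the Argonaute locus LOC_Os04g06770, a carrier of small RNAs, rose in WT (0.54, adjusted p = 0.00927). In the mutant, the Dicer locus LOC_Os04g43050 rose (0.42, adjusted p = 0.0263) and the cytosine methylase locus LOC_Os01g42630 fell (−0.63, adjusted p = 0.0424), calls lost without 4 and 9 of the libraries in turn (adjusted p up to 0.0941 and 0.108). Between genotypes, 0 were called by limma at high Pi (8 at an unadjusted p below 0.05), against 3.58% of all loci tested. At low Pi 1 was called (1.79%, against 15.9% of all loci tested). This jmjC locus, LOC_Os10g42690, was lower in the mutant, with 1.38, 1.10 and 1.70 FPKM in mutant plants and 4.19, 6.93 and 7.29 FPKM in WT (−1.55, adjusted p = 0.0283). Its call was lost without any of the 3 mutant libraries or WT replicate 2 or 3 at low Pi (adjusted p = 0.0505 to 0.1). Of 25 loci described as transposase-derived host proteins, such as hAT dimerisation proteins, 7 were tested. Only 1 was called, for mutant against WT at low Pi (14.3%, against 15.9% of all loci tested). This locus, LOC_Os07g15340, had 3.10, 5.99 and 3.81 FPKM in mutant plants and 2.52, 1.78 and 1.82 FPKM in WT at low Pi (0.77, adjusted p = 0.0215). Its call was lost without mutant replicate 2 or WT replicate 2 or 3 at low Pi (adjusted p = 0.0707, 0.0688 and 0.0779). Transposon-described loci that were not members, LOC_Os07g04930 among them, summed to 66.7 ± 3.01 FPKM in mutant plants at low Pi, 106 ± 20.1 in mutant plants at high Pi, 75.1 ± 7.52 in WT at low Pi and 127 ± 8.75 in WT at high Pi (SD, n = 3 each). LOC_Os07g04930 itself had 17.3 to 71.1 FPKM in mutant plants and 56.2 to 65.2 FPKM in WT at high Pi. At low Pi it had at most 0.04 FPKM, so the higher sums at high Pi rest largely on this 1 locus. Of the 627 loci, 33 were tested. Among them, LOC_Os04g23780, just outside the threshold, had 1.14, 0.87 and 1.23 FPKM in mutant plants and 4.45, 2.40 and 3.20 FPKM in WT at low Pi (−1.04, adjusted p = 0.00364), a call kept under every alternative run.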

How the data were processed

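mRNA of leaf blades was measured in 12 libraries. The authors deposited 4 tables of FPKM, each with 6 libraries; the values of a library repeated in a second table were identical for 12 of 12. StringTie 1.3.6, HISAT2 2.0.5 and CASAVA 2.17 are named by the submitters' processing notes, whereas genome build and annotation are not given there. The authors' deposited folds and p-values were not used, nor were 2 columns without a label. Depth is unknown, since FPKM gave no steps of single reads, so no counting interval was computed. Libraries were made from 1 µg of total RNA, per the labels.

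Members, classes and lists were taken from the locus descriptions, roles from the GO and KEGG terms in the tables, and all were chosen with earlier results of these data known. A model with 4 group means was fitted to log2(FPKM + 1) with limma 3.58.1 (R 4.3.3, empirical Bayes with a mean trend, two-sided, no block), over 17630 loci that reached 1 FPKM in 3 or more libraries. p-values were adjusted by Benjamini-Hochberg over all of them. On simulated data for low against high Pi in WT over 17630 loci, 76 of 100 changes of log2 1 and 97 of 100 of log2 2 were called, with 5 false calls. Recovery of changes below log2 1, the size of most named member calls, was not tested. The number of false calls when as many as 13.3% of loci change, the share called for Pi in WT, was not tested either. Tables were read with Python 3.11.15 and pandas 2.3.3.

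Named loci were LOC_Os06g51220, per comparison the 8 called members with the largest positive and the 8 with the largest negative fold, the 10 highest members and the 2 highest of each class, the 3 loci on each side of the threshold, LOC_Os07g04930 and up to 4 called loci per list and comparison. Neighbouring pairs (LOC_Os04g32050 and LOC_Os04g32060, LOC_Os02g39520 and LOC_Os02g39540, LOC_Os04g44300 and LOC_Os04g44320) were picked after their values were seen. Alternatives changed the pseudocount, filter, scaling, trend, block, fitted libraries and member threshold, and left out each library. The supplied RefSeq table matched 0 of 147 members, so no sequence is shown.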

Additional observations from a re-analysis of the deposited data

Results flagged for a closer look

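The response to low Pi differed between the mutant and WT, by a test of the difference itself, at 4 of the 147 members. The difference on the log2 scale was −1.49 for the Ty1-copia locus LOC_Os01g37040, −0.91 for the repair helicase locus LOC_Os01g01312, −0.85 for the PP2A regulator locus LOC_Os05g08560 and −0.76 for the PP2A regulator locus LOC_Os04g40860. At LOC_Os01g37040 and LOC_Os04g40860, all 3 mutant libraries at low Pi lay below all 3 at high Pi. The reverse held for WT at LOC_Os01g37040 and LOC_Os04g40860, where every library at low Pi lay above every library at high Pi. LOC_Os01g37040 kept its call under all 19 alternatives that apply to the interaction.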

How the results depend on the processing

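Of the 47 member calls picked by the naming rule for each comparison, 22 held under every alternative and 0 changed sign. Named members had further calls: LOC_Os02g26740 and LOC_Os08g03520 for genotype at low Pi and LOC_Os04g40860 for Pi in WT. These were lost under 16 of 19, 9 of 20 and 17 of 20 alternatives. The number of members called was 16 at low against high Pi in WT, and 8 when only the 6 libraries compared were fitted. Mutant against WT at high Pi gave 3 calls, and 0 without the filter, with a filter of 5 FPKM, or with the 6 libraries alone. With the filter of 5 FPKM, LOC_Os01g01312 and LOC_Os10g24020 were no longer tested, and LOC_Os11g41380 lost its call (adjusted p = 0.065). The interaction gave 4 calls, and 2 without the filter. Why the other counts changed was not tested. Leaving out 1 library at a time gave 8 to 16 calls for Pi in WT, 11 to 21 for Pi in the mutant, 0 to 4 for genotype at high Pi, 6 to 18 for genotype at low Pi and 1 to 4 for the interaction. The other alternatives, apart from the replicate block below, left each count within 1.5 times its value. LOC_Os07g04930 could not enter the counts at 1 FPKM in all 12 libraries, since it did not reach that threshold. It was also kept out of the alternative that asked for 1 FPKM in at least 3 libraries. It was itself called for Pi in both genotypes (log2 fold −5.94 in WT and −4.88 in the mutant).

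Replicate numbers are given in the labels, but same-numbered libraries did not deviate together: over 18 pairs the correlation of deviations ran between −0.383 and 0.344, 3 were over 0.1, and not every library correlated best with one of its own number. With the replicate number as a block, calls were 10 for Pi in WT, 15 for Pi in the mutant, 2 and 9 for genotype at high and low Pi, and 3 for the interaction, and the WT response of LOC_Os01g37040 was not called (adjusted p = 0.0564). Depth is unknown, so how far it limits members near 1 FPKM cannot be given.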
